A study of Mus musculus with 4 samples.

Results

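The Adgrg subfamily of adhesion G protein-coupled receptors has 7 members in the mouse, Adgrg1 to Adgrg7, and was followed here by gene symbol, with 1 probe set standing for each gene. Of the 7, 6 had a probe set with a single gene symbol on the array, out of 19938 genes measured in all, and none of the 6 had more than 1 such probe set. Adgrg5 was not analysed here because no probe set is listed for it in the platform annotation used. The subfamily was chosen by the log2 change between Ctcfl and control arrays, in which Adgrg1 had the largest increase of all genes. The values of the members in that comparison are therefore given as a description and not as a test.

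Messenger RNA came from NIH3T3, a mouse fibroblast cell line. All samples were from 1 stable clone, named p19, that carried the plasmids pBI-EGFP-FLAG-mCtcfl and pTA-N. It was designed to express a FLAG-tagged mouse Ctcfl only when doxycycline was absent (Tet-Off). For the 2 control samples the medium held doxycycline at 2 µg/ml, whereas the 2 Ctcfl samples had been kept free of the drug for 48 h. Ctcfl induction and removal of the drug thus always coincided and cannot be told apart, and no second clone was measured. No label ties the replicates to separate cultures, and the spread on which the p-values rest may be technical. CTCFL, also called BORIS, is a DNA-binding paralog of the insulator protein CTCF that is normally made in the testis.

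Adhesion receptors carry a long extracellular part that binds matrix or neighbouring cells, followed by a membrane-spanning receptor part. Many of them cut themselves just outside the membrane, at a site in the GAIN domain, and the short stretch thereby uncovered acts as a tethered agonist. ADGRG1 (GPR56) is known for its role in the developing brain cortex, binds collagen III there, whereas ADGRG6 (GPR126) raises cAMP in Schwann cells during myelination.

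Adgrg5, Adgrg1 and Adgrg3 are neighbours on chromosome 8 in the RefSeq gene order, in that sequence, with 1 other annotated gene between each pair. Adgrg6 lies on chromosome 10, Adgrg7 on chromosome 16, and Adgrg2 and Adgrg4 on chromosome X. The 250 bases before the annotated starts of the 3 clustered receptors are shown because Adgrg1 differed between the groups far more than Adgrg3, the next receptor of the cluster. They are RefSeq sequences of build GRCm38.p6, all on the plus strand, at chr8:94976859-94977108 and chr8:94984149-94984398 for the 2 starts of Adgrg1, chr8:95017442-95017691 for Adgrg3 and chr8:94923444-94923693 for Adgrg5. Both Adgrg1 windows lie within the annotated span of the gene. Capitals mark CCCTC and AGGNGGC, short parts of the CTCF consensus, on either strand.
Adgrg1, first start: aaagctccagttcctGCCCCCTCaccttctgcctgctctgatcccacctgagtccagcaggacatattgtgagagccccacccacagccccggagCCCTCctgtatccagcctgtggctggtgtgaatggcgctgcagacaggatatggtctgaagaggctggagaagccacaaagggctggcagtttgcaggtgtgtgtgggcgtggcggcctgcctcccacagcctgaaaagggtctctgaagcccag
Adgrg1, second start: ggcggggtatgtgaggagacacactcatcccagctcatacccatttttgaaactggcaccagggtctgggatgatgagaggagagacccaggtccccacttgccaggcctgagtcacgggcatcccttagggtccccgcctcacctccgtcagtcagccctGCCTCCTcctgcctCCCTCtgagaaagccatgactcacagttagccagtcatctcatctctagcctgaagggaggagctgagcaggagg
Adgrg3: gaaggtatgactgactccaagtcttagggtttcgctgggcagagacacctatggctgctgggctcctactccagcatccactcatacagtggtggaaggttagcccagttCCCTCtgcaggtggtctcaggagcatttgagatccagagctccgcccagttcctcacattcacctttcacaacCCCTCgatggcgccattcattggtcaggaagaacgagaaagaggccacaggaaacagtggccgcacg
Adgrg5: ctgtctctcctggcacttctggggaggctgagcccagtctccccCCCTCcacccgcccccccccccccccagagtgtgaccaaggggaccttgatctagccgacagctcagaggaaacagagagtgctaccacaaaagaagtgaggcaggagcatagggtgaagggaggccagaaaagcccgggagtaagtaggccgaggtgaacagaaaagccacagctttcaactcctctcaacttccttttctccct

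Both Adgrg1 windows held AGGNGGC, read on the minus strand as GCCNCCT. In the first window this match shared bases with 1 of its 2 matches to CCCTC. The windows of Adgrg3 and Adgrg5 held CCCTC, with 2 matches and 1 match, and no AGGNGGC. Elsewhere in the subfamily AGGNGGC was found only before Adgrg7, and CCCTC was found before Adgrg2 and Adgrg7 but not before Adgrg4 or Adgrg6. Over all 32851 promoter windows of this length, 60.5% held CCCTC and 25% held AGGNGGC on one strand or the other, so these letters are common. The binding of CTCFL was not measured in these samples, and the matches describe letters only.

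The members also differed in base composition at their starts. The Adgrg6 window had 32 CG dinucleotides and that of Adgrg2 had 26, against a median of 6 over all windows. The 2 Adgrg1 windows and the Adgrg5 window had 4 each, Adgrg3 had 7, Adgrg7 had 1 and Adgrg4 had 0. TATAAA, the core of a TATA box, was in none of the 8 windows of the subfamily and in 12.4% of all windows. The GGGCGG box, a site type of Sp1, was in 32.7% of all windows and was found before Adgrg2, Adgrg3, Adgrg5, Adgrg6 and Adgrg7, but not before Adgrg4 or in either Adgrg1 window.

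The values below are log2 RMA expression values, in which a difference of 1 is a doubling. The median probe set stood at 5.20 to 5.24 and the lower quartile at 4.09 to 4.12 on each array. Ctcfl itself was at 7.77 and 7.71 on the control arrays and at 10.37 and 10.35 on the Ctcfl arrays, so it followed the labels. Where on the transcript its probes bind, and so whether they read the transgene, is not known. Both control values of Ctcfl lay above the upper quartile of probe sets, 7.43 and 7.40 on those arrays. Whether the cells made Ctcfl with doxycycline present was not tested. All 7 measured fibroblast markers lay above the array median, and their mean was 10.06 to 10.07 on the control arrays and 9.84 to 9.92 on the Ctcfl arrays. None passed an adjusted p of 0.05 by limma. At an unadjusted p under 0.05 there were 3 of the 7, against 10.7% of all genes. These were Pdgfrb (log2 change -0.56), Col3a1 (-0.38) and Pdgfra (-0.29), while 2 of the 7 were above 0 in log2 change.

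Adgrg1 was at 4.52 and 4.81 on the control arrays and at 8.24 and 8.34 on the Ctcfl arrays. Both control values lay below the median probe set and both Ctcfl values above the upper quartile of 7.40 to 7.41 on those arrays. Among named genes, on average 34.4% were dimmer than Adgrg1 on the control arrays and 82% on the Ctcfl arrays. The group means were 4.67 ± 0.21 and 8.29 ± 0.07 (SD, n = 2 per group), a 12.3-fold difference. Its log2 change, Ctcfl minus control, was 3.62 (SE 0.12), many times the gap of 0.29 between the control arrays and of 0.10 between the Ctcfl arrays. In the limma fit over all genes Adgrg1 was the 1 measured member of 6 past an adjusted p of 0.05, where 0.0451% of all genes were called. With any 1 array left out no gene was called, although the log2 change of Adgrg1 stayed between 3.48 and 3.77.

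**Figure D1:**
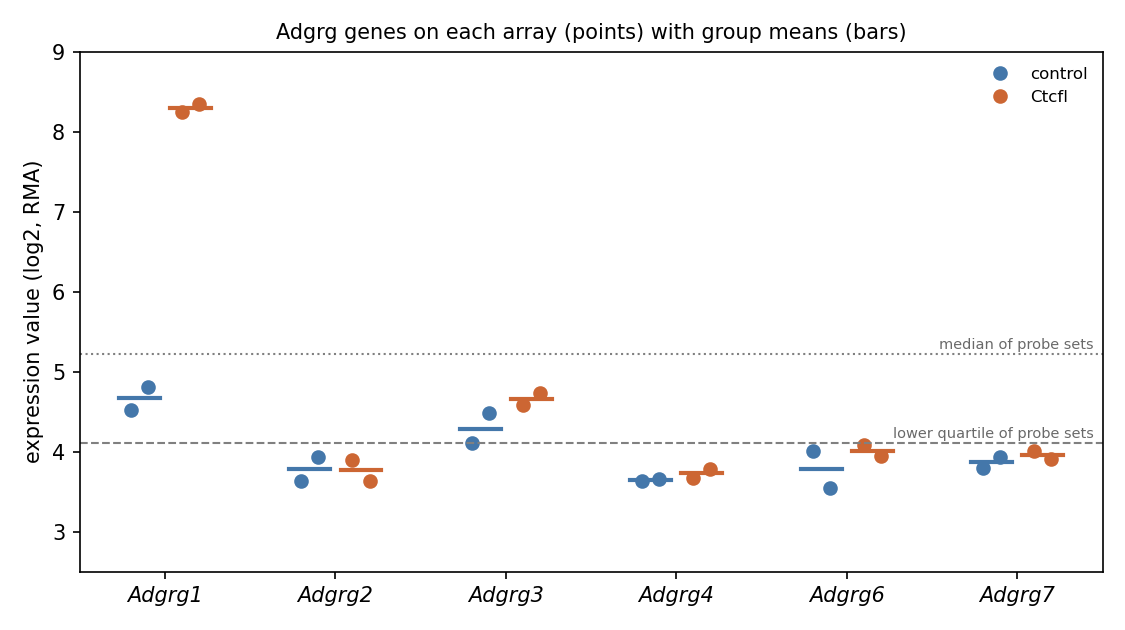
Expression values (log2, RMA) of the 6 measured Adgrg genes, with 1 point for each of the 2 control and 2 Ctcfl arrays and a bar for each group mean; dashed and dotted lines are the mean lower quartile and median of all probe sets over the arrays. Adgrg1 moves from 4.67 to 8.29, while every other value of the subfamily stays between 3.55 and 4.73.

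Adgrg3 (GPR97), a receptor known from leukocytes and the nearest measured gene after Adgrg1, was at 4.11 and 4.48 on the control arrays. On the Ctcfl arrays it was at 4.58 and 4.73, so the groups did not overlap but lay only 0.10 apart at their nearest values. Its log2 change was 0.36 (SE 0.14, 95% interval 0.02 to 0.70, not adjusted for the number of genes), a difference smaller than the gap of 0.37 between the control arrays. It did not pass over all genes.

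The other receptors stayed low in both groups. Adgrg6, the Schwann cell receptor, was at 4.01 and 3.55 on the control arrays and at 4.08 and 3.95 on the Ctcfl arrays. These groups overlapped, and the log2 change was 0.23 (SE 0.16, 95% interval -0.15 to 0.62), with a gap of 0.46 between the control arrays alone. Adgrg2 (GPR64), which serves fluid uptake in the ducts of the male tract, was at 3.64 and 3.94 on the control arrays and at 3.90 and 3.64 on the Ctcfl arrays. Its groups covered nearly the same range, with a log2 change of -0.02 (SE 0.14, 95% interval -0.36 to 0.32).

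Adgrg4 (GPR112) was at 3.63 and 3.66 on the control arrays and at 3.67 and 3.78 on the Ctcfl arrays. The groups did not overlap, by a margin of 0.01, and the log2 change was 0.08 (SE 0.09, 95% interval -0.13 to 0.29). Adgrg7 (GPR128), a receptor of the gut, was at 3.80 and 3.93 on the control arrays and at 4.01 and 3.91 on the Ctcfl arrays. Its groups overlapped, and the log2 change was 0.10 (SE 0.09, 95% interval -0.13 to 0.32).

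Of the 6 measured members, 3 had Ctcfl values above both control values, 3 overlapped and none was lower on both Ctcfl arrays. Over all genes 20.6% were higher without overlap and 20.6% were lower. The median log2 change of the 6 was 0.17, against 0.00 over all genes. Both the count and the median include Adgrg1, by whose change the subfamily was chosen, so neither describes the other members alone. All values of Adgrg2, Adgrg4, Adgrg6 and Adgrg7 lay below the lower quartile of probe sets on their array. Whether these receptors were detected is unknown without detection calls, and a change in a receptor that the array did not detect would not appear. Within that limit, the upper ends of the intervals for Adgrg2, Adgrg4, Adgrg6 and Adgrg7 ran from 0.29 to 0.62, and that for Adgrg3 was 0.70. Adgrg1 was picked for its large change, so its interval is not set against these.

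Adhesion receptors of the other subfamilies were compared in the same way. Of 23 listed, 22 were measured, and none passed over all genes by limma. At an unadjusted p under 0.05 there were 2, or 9.09%, against 10.7% of all genes. Their median log2 change was 0.02. Adgrl1, a latrophilin of synapses, was at 6.76 and 6.79 on the control arrays and at 7.17 on both Ctcfl arrays, a log2 change of 0.40 (SE 0.08, adjusted p = 0.261 by limma). Adgra1 was at 5.03 and 5.04 on the control arrays and at 5.20 and 5.64 on the Ctcfl arrays (log2 change 0.39, SE 0.15, adjusted p = 0.446 by limma), with most of the difference on 1 Ctcfl array. The largest decrease in value was that of Adgra3, a log2 change of -0.20 (SE 0.09).

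**Figure D2:**
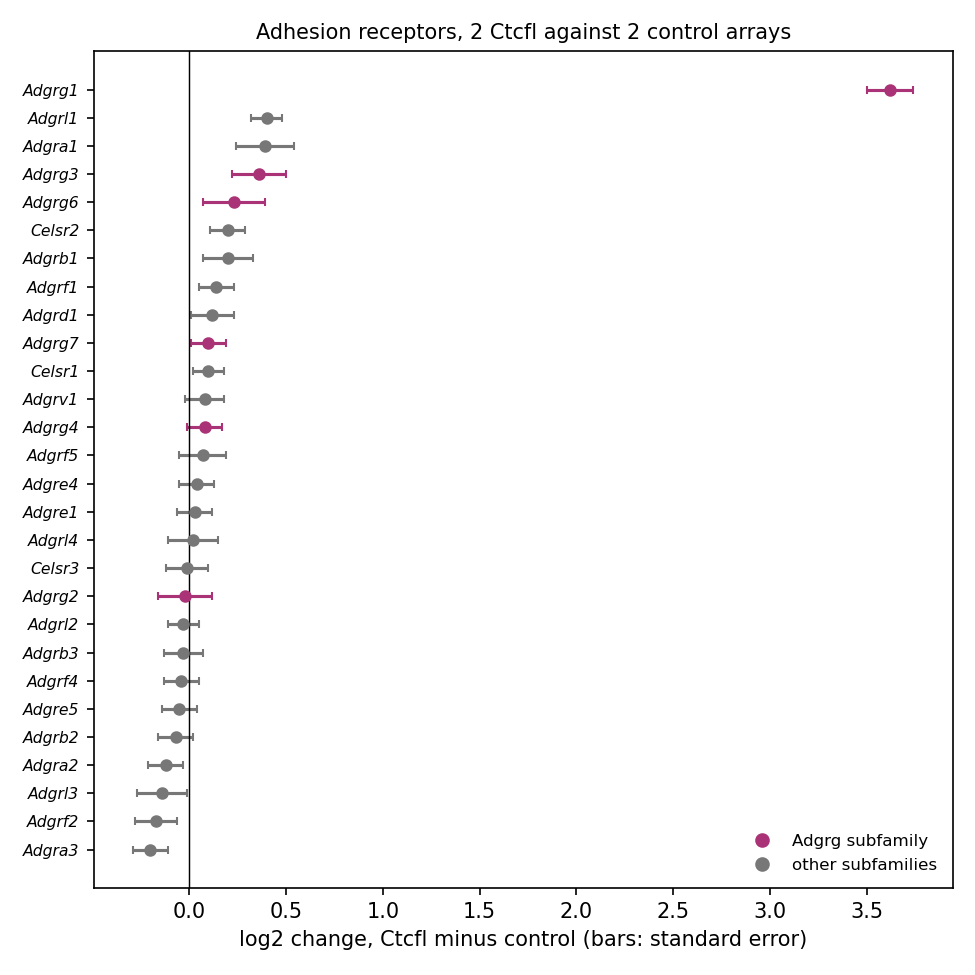
Log2 change (Ctcfl minus control, 2 arrays each) of 6 Adgrg genes and 22 other adhesion receptors, as points with the standard error of the fit. Adgrg1 stands at 3.62, and all other receptors lie between -0.20 and 0.40.

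The genes beside the members on their chromosomes were also read. Before Adgrg1, the nearest measured gene was Ccdc102a, at 6.42 and 6.45 on the control arrays and at 6.37 and 6.71 on the Ctcfl arrays (log2 change 0.10, SE 0.13). Drc7, a gene of the motile cilium and the next after Adgrg3, had 0.24 (SE 0.12), and Kifc3, a kinesin after it, had -0.30 (SE 0.09). Neither passed. Around the remaining members, the log2 changes were 0.02 for Pdha1 and 0.10 for Phka2 beside Adgrg2, 0.07 for Map7d3 and 0.03 for Brs3 beside Adgrg4, -0.09 for Hivep2 and 0.12 for Vta1 beside Adgrg6, and -0.06 for Tfg and 0.09 for Tmem45a beside Adgrg7. None of these passed over all genes, so apart from Adgrg1 no measured gene next to a member was called.

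**Figure D3:**
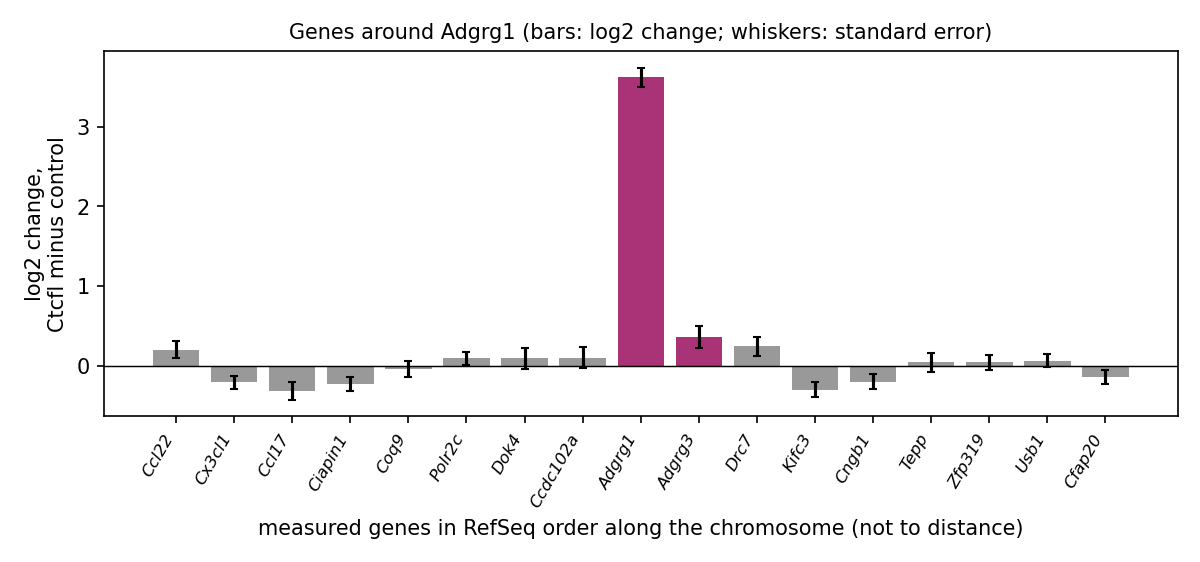
Log2 change (Ctcfl minus control; whiskers are standard errors) of Adgrg1 and of the 8 measured genes on either side of it in the RefSeq order; Adgrg5, between Ccdc102a and Adgrg1, has no bar. Adgrg1 reaches 3.62 and the 16 others lie between -0.32 and 0.36.

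Described ligands and membrane partners of ADGRG1 and ADGRG6 were all measured. Of 11, none passed over all genes by limma. At an unadjusted p under 0.05 there were 4, or 36.4% against 10.7% of all genes, 2 higher and 2 lower, with a median log2 change of 0.01. Col3a1, which encodes collagen III, the ligand of ADGRG1 in the brain, was at 7.87 and 7.93 on the control arrays and at 7.56 and 7.48 on the Ctcfl arrays. Both Ctcfl values were thus lower (log2 change -0.38, SE 0.09, adjusted p = 0.288 by limma). Col4a2, a chain of collagen IV, which binds ADGRG6, was at 7.58 and 7.53 on the control arrays and at 7.83 and 7.78 on the Ctcfl arrays (log2 change 0.25, SE 0.08, adjusted p = 0.412 by limma).

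Further partners showed smaller differences. Tgm2, the transglutaminase that binds ADGRG1, had a log2 change of 0.24 (SE 0.13), Plxnb2 had -0.07 (SE 0.08), and the tetraspanins Cd9 and Cd81 had -0.20 (SE 0.08) and 0.12 (SE 0.08). Prnp, the prion protein, an agonist of ADGRG6, had 0.21 (SE 0.09). Among laminin-211 chains, Lama2 was at 3.96 to 4.18 over the 4 arrays, near the lower quartile, while Lamb1 and Lamc1 had log2 changes of -0.01 and 0.01.

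No gene of the signalling lists passed either. Of 30 measured G protein subunits 18 were above and 12 below 0 in log2 change, with a median of 0.02 and 1 at an unadjusted p under 0.05, or 3.33% against 10.7% of all genes. The alpha subunits Gna12 and Gna13, through which ADGRG1 is known to signal, had log2 changes of -0.15 (SE 0.08) and 0.02 (SE 0.09). The gamma subunits Gng8 and Gng2 had -0.30 (SE 0.09, adjusted p = 0.383 by limma) and 0.28 (SE 0.12, adjusted p = 0.479 by limma).

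In the Gq branch, 3 of 10 measured genes, or 30%, had an unadjusted p under 0.05, against 10.7% of all genes, and none passed over all genes. The phospholipase gene Plcb1 was at 6.16 on both control arrays and at 5.67 and 5.84 on the Ctcfl arrays (log2 change -0.41, SE 0.09, adjusted p = 0.298 by limma). Its relative Plcb3 went the other way, from 8.33 and 8.53 to 8.81 and 8.72 (log2 change 0.34, SE 0.10, adjusted p = 0.383 by limma). Of 22 measured cAMP genes none passed, also without adjustment, and the adenylate cyclases Adcy10 and Adcy1 had log2 changes of 0.21 (SE 0.09) and -0.18 (SE 0.08).

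Among the kinases, arrestins and RGS proteins that switch such receptors off, 5 of 20 measured genes, or 25%, had an unadjusted p under 0.05, against 10.7% of all genes, and none passed over all genes. Arrb1, beta-arrestin 1, was at 6.90 and 6.80 on the control arrays and at 6.54 and 6.53 on the Ctcfl arrays (log2 change -0.32, SE 0.09, adjusted p = 0.348 by limma). Grk4, a receptor kinase, was at 3.43 and 3.71 on the control arrays and at 3.87 and 4.04 on the Ctcfl arrays, all below the lower quartile (log2 change 0.39, SE 0.12, adjusted p = 0.399 by limma). Across the 115 measured genes of the lists combined, 15 had an unadjusted p under 0.05, or 13%, against 10.7% of all genes.

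**Figure D4:**
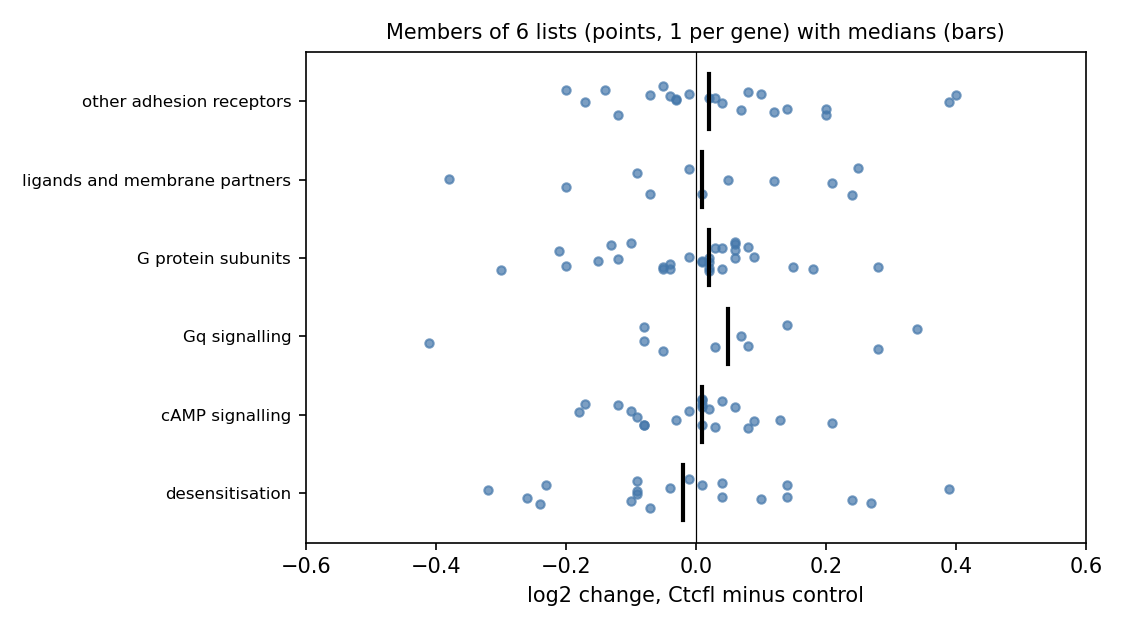
Log2 change (Ctcfl minus control) of each measured gene in 6 lists of receptors, partners and signalling genes, with 1 point per gene, scattered vertically for visibility, and a bar at the median of each list. Medians lie between -0.02 and 0.05, and no gene lies outside -0.41 to 0.40.

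The genes whose values over the 4 arrays were most like those of Adgrg1 were found by the root mean square distance between log2 values, each taken minus its gene's mean. The 5 nearest were Gstm5 (distance 0.44), a glutathione transferase, Ctcfl (0.52), Lpcat2 (0.73), a lysophospholipid acyltransferase, Col5a2 (1.14), a chain of collagen V, and Capns2 (1.16), a calpain small subunit. For scale, the profile of Adgrg1 had a root mean square size of 1.82. These 5 also hold the next 5 places after Adgrg1 by log2 change, because the measure weighs size. With only 4 arrays in 2 groups, any gene with a large increase comes near. On the array, Gstm5, Ctcfl and Col5a2 were already above the upper quartile in the control samples. By contrast, Adgrg1, Lpcat2 and Capns2 were below or near the median there.

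**Figure D5:**
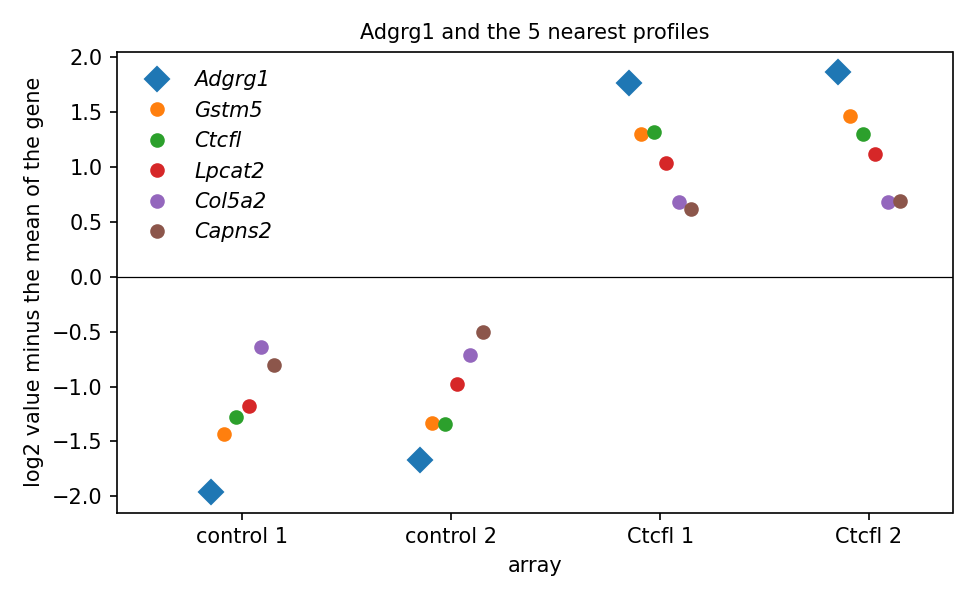
Log2 value minus the mean of the gene on each of the 4 arrays, for Adgrg1 (diamonds) and the 5 genes nearest to it (circles). All 6 genes are below their mean on both control arrays and above it on both Ctcfl arrays, with Adgrg1 farthest from 0 on each.

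Markers of other cell types in which Adgrg genes are known were read beside these values. For T and natural killer cells, where Adgrg1 is found, 9 of 9 markers were measured and none passed. Their mean was 4.05 on both control arrays and 4.05 to 4.13 on the Ctcfl arrays. At an unadjusted p under 0.05 there was 1 of the 9, Nkg7 (log2 change 0.36, SE 0.12), against 10.7% of all genes. Means of the neural progenitor markers were 4.15 to 4.29 and 4.19 to 4.23 in the respective groups (5 of 6 measured), and those of the Schwann cell markers were 4.85 to 4.92 and 4.91 to 4.96 (3 of 5 measured). None of the endothelial (5), epithelial (6), skeletal muscle (5) or germ cell (6) markers passed. At an unadjusted p under 0.05 there was 1 of the 6 epithelial markers, Krt8 (log2 change 0.57, SE 0.14), against 10.7% of all genes. The neural progenitor, Schwann cell, endothelial, skeletal muscle and germ cell lists had 0. In the epithelial list 3 of 6 were above 0 in log2 change, with a median of 0.01. Most of the means of the lists of other cell types lay below the array median. The part of other cells in the Adgrg1 values was not tested. In such bulk samples, more cells with a transcript and more transcript per cell cannot be told apart.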

How the data were processed

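RNA of 2 control and 2 Ctcfl samples was hybridised to Affymetrix arrays after biotin labelling, per the labels' protocols. The deposited values are log2 RMA expression values made by the authors with Expression Console, per the labels. RMA corrects background, quantile-normalises the arrays and summarises probes per probe set. Software version and settings are not given in the sources used here. RMA values are compressed at the low end, so changes of dim genes can be understated, and the number of arrays limits the precision.

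Of 35511 probe sets with values, 21789 had 1 gene symbol in the platform annotation, 1621 had several and 12101 were not listed. Gene IDs of 21698 matched the RefSeq table of GRCm38.p6, and 0 symbols changed. Where a gene had several probe sets, the brightest on average was kept. The comparison used limma 3.58.1 (lmFit and eBayes in R 4.3.3, two-sided, Benjamini-Hochberg over 19938 genes, threshold 0.05), without further normalisation or filter. Intervals are 95% intervals of that fit. Only the limma step was also tried on simulated data, apart from the other steps.

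One further gene list is not reported here. The members and gene lists were chosen with earlier results of these data known. Named were all members, Ctcfl, in each list the members past the threshold or else the 2 with the smallest unadjusted p, the genes flanking each member and the 5 nearest profiles. Any further gene with values in the text was picked with its values in view. Alternatives were quantile normalisation, median centring, dropping the dimmest 33.3% of genes, the mean of probe sets, robust variances with an intensity trend (by statmod 1.5.0), all probe sets fitted together, a replicate block and leaving out each array. Plots were made in Python 3.11.15 (matplotlib 3.10.9).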

Additional observations from a re-analysis of the deposited data

How the results depend on the processing

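The log2 change of Adgrg1 was 3.48 to 3.77 under all alternatives, but its call varied. Adgrg1 has 1 probe set, so several alternatives could not move its log2 change. These were the mean of probe sets, all probe sets together, the removal of dim genes, the intensity trend and the replicate block. Leaving out an array could move it only by part of the gap between replicates. Adgrg1 passed in limma with quantile normalisation, median centring, the mean of probe sets and without the dimmest 33.3% of genes. It also passed in a fit of robust variances with an intensity trend. In each of these it was the 1 member called. It did not pass with any 1 array left out (log2 change 3.48 to 3.77, adjusted p from 0.539 to 0.649, 0 members called), where 1 residual degree of freedom remains and the lone array of its group is assumed to vary like the other group. Nor did it pass with all probe sets fitted together (3.62, adjusted p = 0.066, 0 members). The cause was not tested.

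The number of genes past the threshold was 9 as reported, 20 without the dimmest 33.3% of genes, 479 by robust variances with an intensity trend, 0 by limma with all probe sets together (2764 unadjusted) and 0 with any array left out (1329 to 1663 unadjusted). In the intensity trend fit 1 other adhesion receptor (Adgrl1), 1 ligand (Col3a1) and 1 gene of the Gq branch (Plcb3) passed, against 0 in each list as reported. The other 3 lists had 0 calls under every alternative run, and all 6 lists had 0 with each array left out. With a replicate block limma called 0 genes (1468 unadjusted) and 0 members, with Adgrg1 at 3.62 (adjusted p = 0.071). The numbers are not shown to pair the samples: same-numbered arrays had deviations correlated at -0.102 over genes. A crossed pairing, added after the data were seen, also called 0 genes (2105 unadjusted) and 0 members. Either block leaves 1 residual degree of freedom, as leaving out an array does, so the lost calls do not speak for a pairing.

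Of the members other than Adgrg1, Adgrg3, Adgrg4, Adgrg6 and Adgrg7 kept a log2 change above 0 under every alternative run on them, with Adgrg6 between 0.01 (without control replicate 2) and 0.47, while Adgrg2 ranged from -0.17 to 0.13. All 5 were among the genes removed with the dimmest 33.3%. Each has 1 probe set, and several alternatives could therefore not move its log2 change. These were the mean of probe sets, all probe sets together, the intensity trend and the replicate block.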

Other observations

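A gene called on the same chromosome as Adgrg1 was Lpcat2, at 5.04 and 5.24 on the control arrays and at 7.26 and 7.34 on the Ctcfl arrays (log2 change 2.16, SE 0.10, adjusted p = 0.00248 by limma). Beside it in the gene order was Capns2, at 4.42 and 4.72 on the control arrays and at 5.84 and 5.92 on the Ctcfl arrays (log2 change 1.31, SE 0.12, adjusted p = 0.0554 by limma). Adgrg1 and Lpcat2 were the only 2 called genes on chromosome 8, with 39 protein-coding genes of the RefSeq order between them. Of these and other annotated genes in between, 36 apart from Capns2 were measured. None passed over all genes by limma, and their log2 changes ran from -0.98 for Mt2, a metallothionein, to 0.20 for Ccl22, a chemokine. At an unadjusted p under 0.05 there were 8 of 36, or 22.2% against 10.7% of all genes, and all 8 were lower on the Ctcfl arrays. This stretch was singled out after its values were seen, so it has no test of its own.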
